A study of Homo sapiens with 2 samples.

Results

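The genes described here encode, or build, 10 surface antigens used to type myeloid leukaemia: CD33, ANPEP (CD13), FUT4 (CD15), CD38, CD34, KIT (CD117), CLEC12A, CD44, CD47 and FLT3 (CD135). They were taken by name, and each gene was read from probe sets annotated with its symbol alone. Of the 10 genes 9 had 1 such probe set, among 18404 genes named in the same way, while CD33 is not analysed here. The samples were 2 arrays of wild-type HL-60, an established human promyelocytic leukaemia line kept in DMEM with 10% serum. They are replicates 1 and 2 of 1 group with no treatment or genetic change stated, so nothing is compared between conditions. Separate cultures are not stated for them, and the spread may therefore be technical. According to its design text the study relates binding of RNA by the methyltransferase DNMT1 to DNA methylation and transcript levels.

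Typing antigens mark the stage and lineage of leukaemic cells. CD34 and KIT are found on haematopoietic stem and progenitor cells and are lost as granulocytes mature, whereas CD13 and CD15 belong to committed myeloid cells. The list mixes kinds of protein: ANPEP and CD38 are enzymes facing outward, KIT and FLT3 are receptor tyrosine kinases, CLEC12A is an inhibitory lectin-like receptor, CD44 and CD34 are adhesion glycoproteins, and CD47 is the signal that restrains phagocytosis. FUT4 differs from the others, since it is a Golgi fucosyltransferase that makes the CD15 sugar and is not itself displayed. The arrays measure RNA, and no surface protein was measured.

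Because the study concerns DNA methylation, whose usual target in human DNA is the CpG dinucleotide, the 250 bases upstream of the transcription start are shown for 4 genes that span the range of signal and of CpG number. The sequences are from RefSeq (GRCh38.p14), written 5′ to 3′ along the gene's strand, and capitals mark CpG dinucleotides.
CD47, chr3:108091032-108091281, minus strand: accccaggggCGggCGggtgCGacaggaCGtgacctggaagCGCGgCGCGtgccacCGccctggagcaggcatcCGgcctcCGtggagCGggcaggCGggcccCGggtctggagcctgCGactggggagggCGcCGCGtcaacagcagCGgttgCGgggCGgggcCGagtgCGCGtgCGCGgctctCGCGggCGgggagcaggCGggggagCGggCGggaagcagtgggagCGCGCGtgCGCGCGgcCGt
ANPEP, upstream start, chr15:89814853-89815102, minus strand: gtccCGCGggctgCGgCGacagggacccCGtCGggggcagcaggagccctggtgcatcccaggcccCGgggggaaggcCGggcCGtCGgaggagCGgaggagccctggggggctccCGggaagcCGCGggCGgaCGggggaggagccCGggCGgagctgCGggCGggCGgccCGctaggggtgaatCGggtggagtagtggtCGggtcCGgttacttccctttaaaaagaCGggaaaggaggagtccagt
ANPEP, downstream start, chr15:89806629-89806878, minus strand: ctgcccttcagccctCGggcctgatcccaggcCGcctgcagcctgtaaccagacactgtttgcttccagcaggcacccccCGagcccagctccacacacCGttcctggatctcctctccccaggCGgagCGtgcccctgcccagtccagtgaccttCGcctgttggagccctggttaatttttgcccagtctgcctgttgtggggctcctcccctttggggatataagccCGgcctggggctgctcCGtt
KIT, chr4:54657707-54657956, plus strand: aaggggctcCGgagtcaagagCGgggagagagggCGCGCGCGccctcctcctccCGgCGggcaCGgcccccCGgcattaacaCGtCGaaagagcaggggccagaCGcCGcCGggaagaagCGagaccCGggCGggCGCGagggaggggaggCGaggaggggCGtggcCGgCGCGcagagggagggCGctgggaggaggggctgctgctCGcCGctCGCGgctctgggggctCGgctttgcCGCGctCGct
CLEC12A, chr12:9971159-9971408, plus strand: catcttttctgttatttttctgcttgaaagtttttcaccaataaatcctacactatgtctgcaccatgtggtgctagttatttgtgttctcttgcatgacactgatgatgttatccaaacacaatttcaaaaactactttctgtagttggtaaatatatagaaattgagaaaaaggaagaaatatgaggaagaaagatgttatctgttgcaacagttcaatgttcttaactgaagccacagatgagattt
The CD47 window held 39 CpGs and the KIT window 34, more than 97.3% and 93.2% of the 35116 promoter windows of that length. The CLEC12A window held 0, as did 6.06% of all windows. ANPEP is known to be transcribed from separate myeloid and epithelial promoters, and its 2 listed start sites lie 8224 bases apart. The upstream window held 26 CpGs and the downstream one 9, but the gene's single probe set does not tell transcripts from these starts apart. Methylation itself was not measured on these arrays.

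Transcript signals of the typing antigens were sorted into 3 levels by background thresholds, not by gaps between the signals. ANPEP and CD47 were well above background, FUT4, FLT3 and CLEC12A were above the lower of a pair of background thresholds only, and KIT, CD44, CD38 and CD34 were not above background. The lower threshold was the 95th percentile of 340 olfactory receptor genes, sensors of the nose: 2.98 on replicate 1 and 2.87 on replicate 2 (log2 RMA signal, as are all signals below). The higher was the same percentile of 115 genes of 3 other restricted families (beta-defensins, keratin-associated proteins and taste receptors), at 5.41 and 5.23. Of these 115 genes 37 (32.2%) passed the olfactory threshold on both arrays, so passing that threshold alone is weak evidence of expression. On both arrays 5 of the 9 genes passed the olfactory threshold, as did 55.8% of all named genes, and 2 of 9 passed the second, as did 17.0% of all named genes. The shares are near those of all genes, so the antigens as a set did not stand out by number. Their median signal was 3.18 on replicate 1 and 3.29 on replicate 2, beside 3.35 and 3.34 for all named genes. Probe sets differ in how well they bind their target, so a higher signal of one gene than of another is not a higher transcript number.

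**Figure D1:**
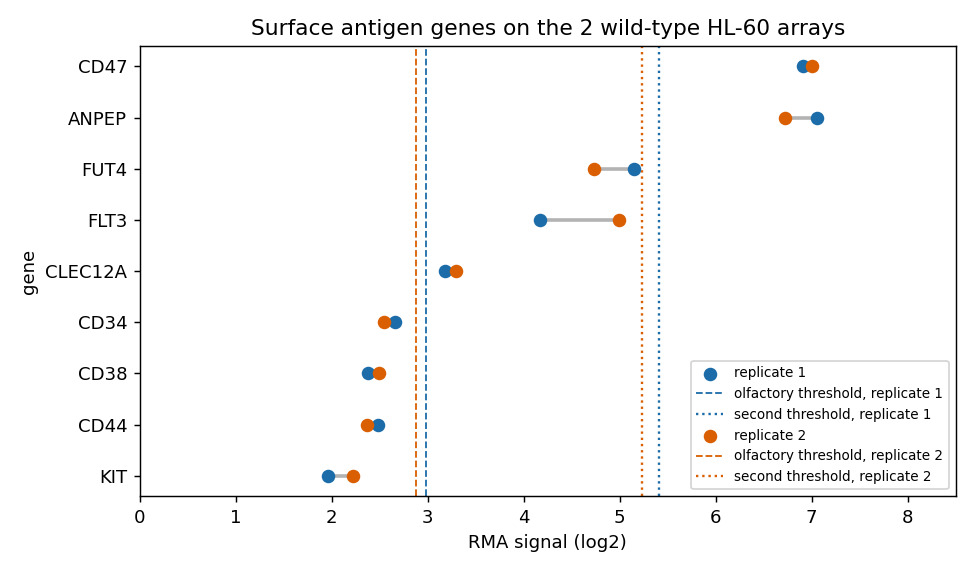
RMA signal (log2, horizontal axis) of the 9 measured surface antigen genes on replicate 1 (blue) and replicate 2 (orange), with the olfactory threshold (dashed) and the second threshold (dotted) of each array. CD47 and ANPEP lie right of all thresholds and KIT, CD44, CD38 and CD34 left of all of them, and the points of FLT3 are the farthest apart.

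The antigens differed between the arrays by 0.09 to 0.83 in either direction (log2), FLT3 the most and FUT4 next. Between the arrays, named genes differed with an SD of 0.39, equal to 0.28 for 1 array. That value was used as a rough error of a single gene, since an SD over 2 values is poorly determined. It pools genes of all signal levels, and 962 named genes read exactly the same on both arrays. For 2 of the 9 genes, FLT3 (0.83) and FUT4 (-0.41), the difference was larger than the SD over all genes. Of all named genes 25.9% differed by more than FUT4 and 4.11% by more than FLT3, so the FUT4 difference was a common one. None of the 9 differed by more than 1 (2-fold), as 1.96% of all named genes did. Of the 9 genes 5 read higher on replicate 2 and 4 lower, with a median difference (replicate 2 minus replicate 1) of 0.09 on the log2 scale, beside -0.04 for all named genes. With 1 array on each side no difference between them can be tested.

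**Figure D2:**
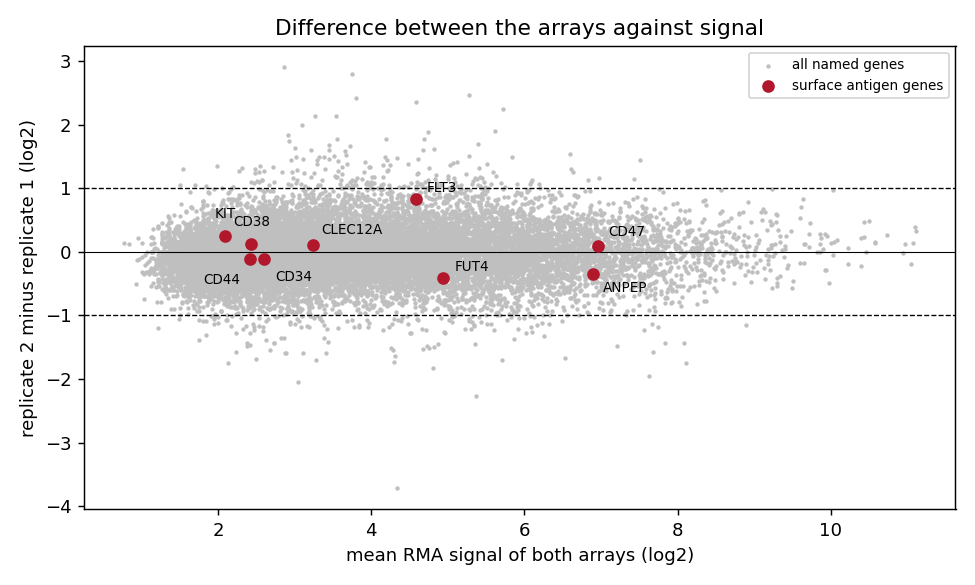
Replicate 2 minus replicate 1 (log2, vertical axis) against the mean signal of both arrays (log2, horizontal axis) for all 18404 named genes (grey) and the 9 surface antigen genes (red); dashed lines mark a difference of 1 in either direction. All 9 genes lie between the lines, and FLT3 at 0.83 is the nearest to them.

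Among the enzymes, ANPEP, aminopeptidase N, which trims peptides at the cell surface, read 7.06 on replicate 1 and 6.72 on replicate 2 (mean 6.89 ± 0.24, SD, n = 2). It exceeded the second threshold on both arrays, by 1.65 and 1.48, and 95.1% and 93.3% of named genes had a lower signal. Of its 10 measured M1 aminopeptidase relatives 6 passed the olfactory threshold and 3 the second, beside 55.8% and 17.0% of all named genes. The cytosolic NPEPPS (6.35 and 5.84) and the antigen-trimming ERAP2 (5.97 and 5.98) were the highest of these relatives. LVRN was the lowest (1.77 on both arrays).

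FUT4, which adds fucose to make the Lewis X sugar that antibodies read as CD15, gave 5.15 on replicate 1 and 4.74 on replicate 2 (mean 4.94 ± 0.29, SD, n = 2). It stood above the olfactory threshold by 2.17 and 1.86. It was short of the second on both arrays, on replicate 1 by less than the per-array SD of 0.28. Of 10 other measured fucosyltransferases 6 were over the olfactory threshold and 0 over the second, beside 55.8% and 17.0% of all named genes. FUT8, which fucosylates the core of N-glycans, read 4.54 and 4.82, FUT6 3.82 and 3.66, and FUT9, another enzyme able to make Lewis X, was the lowest at 1.63 and 1.46. Of 13 genes that supply GDP-fucose or build and cap the acceptor sugar, 11 were over the olfactory threshold and 2 over the second. The galactosyltransferase genes B4GALT5 (7.17 and 6.79) and B4GALT1 (5.40 and 6.09) were the highest by their mean. B4GALT1 was over the second threshold on replicate 2 only, so it is not among the 2. The fucokinase FCSK (2.84 and 2.96) was the lowest and passed the olfactory threshold on replicate 2 only.

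CD38, an ectoenzyme that consumes NAD and makes cyclic ADP-ribose, read 2.37 on replicate 1 and 2.50 on replicate 2 (mean 2.44 ± 0.09, SD, n = 2). Both values lay under the olfactory threshold, by 0.61 and 0.38. Its paralogue BST1 read 3.24 and 3.43, over the olfactory threshold on both arrays; it is mentioned for its kinship after its value was seen. Of 13 measured genes of NAD ectoenzymes and salvage 5 passed the olfactory threshold and 1 the second, NADSYN1 (5.65 and 5.57), which makes NAD from its acid precursor. NAMPT, the rate-limiting enzyme of NAD salvage, read 5.11 and 5.77, and the ectoenzyme ENPP1 was the lowest (1.22 and 1.78).

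The receptor kinases differed from each other. FLT3, the receptor that drives early progenitor growth, read 4.17 on replicate 1 and 5.00 on replicate 2 (mean 4.59 ± 0.58, SD, n = 2). Both values exceeded the olfactory threshold, and neither the second, which replicate 2 missed by less than the per-array SD. The FLT3 difference of 0.83, or 1.77-fold, was more than 2 times the SD over all genes, and 4.11% of named genes differed by more. KIT, the stem cell factor receptor, read 1.96 on replicate 1 and 2.22 on replicate 2 (mean 2.09 ± 0.18, SD, n = 2). Both values were under the olfactory threshold, by 1.02 and 0.66. Of 6 related receptor kinase genes 2 passed the olfactory threshold, FLT4 (3.40 and 2.95) and PDGFRB (3.13 and 3.02), and 0 the second; the vascular receptor gene FLT1 was the lowest (1.97 and 1.62).

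The ligand of FLT3 was itself above the lower background and that of KIT was not. FLT3LG read 5.04 and 4.42, and KITLG, stem cell factor, read 2.56 and 2.03. Of 13 measured genes of ligands and counter-receptors of the antigens and their relatives, 5 (38.5%) were over the olfactory threshold and 0 over the second, and SPP1, osteopontin, was the lowest (1.96 on both arrays). Of 24 genes that act inside the cell in KIT and FLT3 signalling, 23 (95.8%) passed the olfactory threshold, beside 55.8% of all named genes, and 10 the second. PTPN11, the phosphatase SHP2, read 7.71 and 7.54, and CBLC, a ubiquitin ligase gene of epithelia, was the only one not above background (2.64 on both arrays). In this list 3 of 24 genes were higher on replicate 2 by more than 1, beside 1.08% of all named genes, and 0 were lower by as much. They were the Src family kinase genes FYN (4.60 and 6.85) and LYN (5.09 and 6.59) and the adaptor gene GAB2 (6.86 on replicate 1 and higher by 1.15 on replicate 2). FLT3 was higher on the same array. Of 8 listed promyelocyte markers 4 were lower there by more than 1 (0.880% of all named genes were). These 4 were LYZ (6.50 and 4.24), CTSG (8.99 and 7.24), PRTN3 (7.95 and 6.47) and MS4A3 (5.98 and 4.88). Not all 8 markers were lower on replicate 2. By any amount 6 were lower and 2 were higher, ELANE (4.47 and 4.71) and AZU1 (3.01 and 3.19). The part of these differences in the FLT3 signal was not tested.

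CLEC12A, an inhibitory receptor of myeloid cells used to follow leukaemic stem cells, read 3.18 on replicate 1 and 3.29 on replicate 2 (mean 3.23 ± 0.08, SD, n = 2). It passed the olfactory threshold by 0.19 and 0.42, the smallest margins of the 5 genes that passed, and it no longer passed with the 99th percentile of the olfactory genes as threshold (3.52 and 3.78). Of 17 other C-type lectin receptor genes of this kind only 1 (5.88%) passed, CLEC2D (4.62 and 5.49), and 0 the second threshold. KLRB1 (2.96 and 3.56) passed on replicate 2 only, and KLRF1 was the lowest (1.56 and 1.36). CD33 belongs to the sialic acid-binding lectins, of which 5 of 14 others exceeded the olfactory threshold and 0 exceeded the second. SIGLEC6 (4.88 and 5.63) and SIGLEC5 (3.49 and 3.85) were the highest, and CD22, the B cell member, the lowest by its mean (1.46 and 2.44).

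CD34, the progenitor sialomucin, read 2.66 on replicate 1 and 2.54 on replicate 2 (mean 2.60 ± 0.08, SD, n = 2). It missed the olfactory threshold by 0.32 and 0.33, slightly more than the per-array SD. Among 7 related sialomucin genes 5 exceeded the olfactory threshold and 1 also the second, beside 55.8% and 17.0% of all named genes. The 1 was CD164 (7.05 and 7.28), an adhesion molecule of many cell types. PODXL2, of the CD34 family, read 4.82 and 5.06, and EMCN, an endothelial sialomucin, was the lowest (2.31 and 1.98).

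CD44, the receptor for hyaluronan, read 2.48 on replicate 1 and 2.37 on replicate 2 (mean 2.42 ± 0.08, SD, n = 2). It was under the olfactory threshold by 0.50 and 0.51. CD44 is spliced into many forms, and its 1 probe set is annotated with 8 RefSeq mRNAs, against 1 to 3 for the other 8 genes, so forms cannot be told apart. Of 11 measured partners of CD44, 6 exceeded the olfactory threshold and 5 also the second, beside 55.8% and 17.0% of all named genes. The 5 included MSN (8.64 and 8.46), the moesin that ties CD44 to actin, and ADAM10 (7.26 and 7.29), a protease that sheds it. ANK3 was the lowest of the 11 (1.91 and 1.65).

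CD47, which tells macrophages not to engulf the cell, read 6.92 on replicate 1 and 7.00 on replicate 2 (mean 6.96 ± 0.06, SD, n = 2). It exceeded the second threshold by 1.51 and 1.77, and 94.4% and 95.1% of named genes had a lower signal. SIRPA, the receptor on phagocytes that CD47 engages, read 4.66 and 5.39, over the olfactory threshold on both arrays and over the second on replicate 2 only. Of 11 genes of SIRP relatives, CD47-modifying enzymes and other engulfment signals, 7 exceeded the olfactory threshold and 3 also the second. The shares of all named genes were 55.8% and 17.0%. CALR, calreticulin, a chaperone that favours engulfment when exposed, read 10.08 and 9.80, and B2M, the light chain of MHC class I, read 7.04 and 7.38. CD24 was the lowest (1.68 and 2.05). QPCT, a glutaminyl cyclase gene, read 2.58 and 4.02, so it passed on replicate 2 only; QPCTL, the cyclase known to modify CD47, read 4.37 and 4.26 and is named after its value was seen.

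Of 34 other typing panel antigens 15 (44.1%) exceeded the olfactory threshold and 4 also the second, beside 55.8% and 17.0% of all named genes. TFRC, the transferrin receptor of dividing cells, read 8.28 and 8.05. PTPRC, the leukocyte antigen CD45, read 5.71 and 6.71, a difference of 1.00 that was just past the limit. CD36, a scavenger receptor of monocytes and erythroid precursors, was the lowest (1.20 and 1.35). Over all related lists, 106 of 192 measured genes (55.2%) passed the olfactory threshold.

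**Figure D3:**
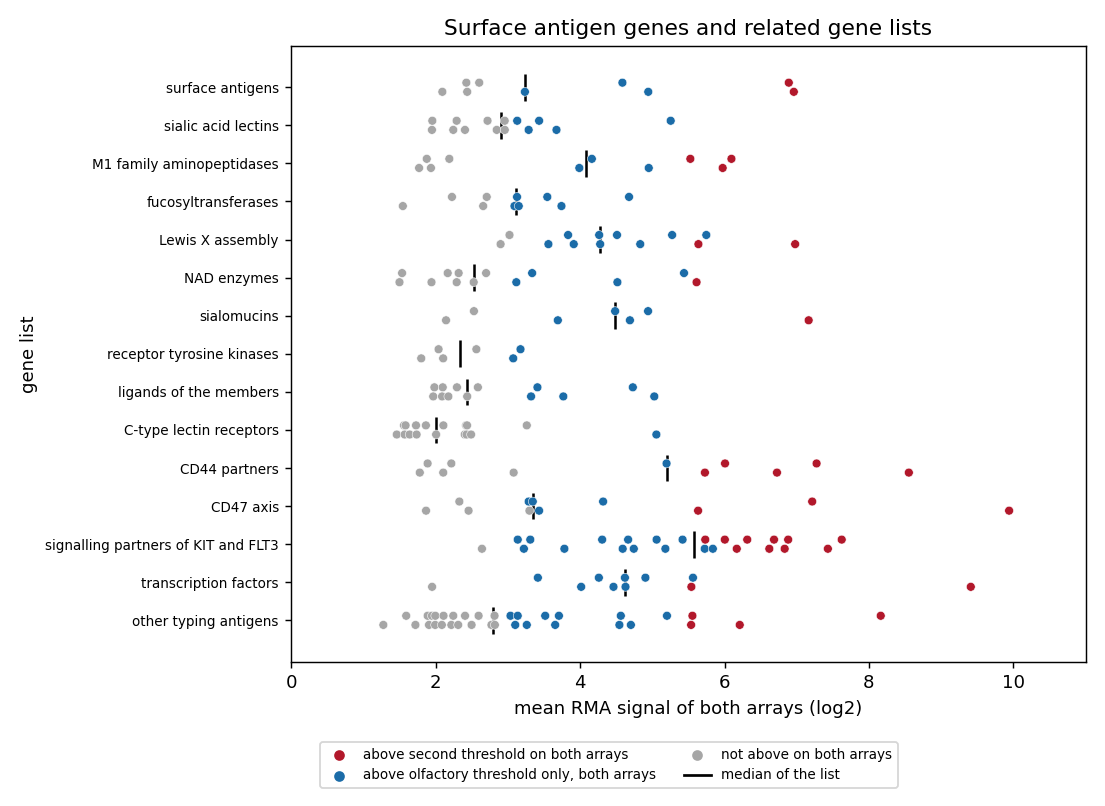
Mean signal of both arrays (log2, horizontal axis) of each measured gene of the surface antigens and 14 related lists (rows); colour gives the threshold passed on both arrays and black bars the list medians. The signalling partners of KIT and FLT3 lie almost wholly above the olfactory threshold, with 23 of 24 genes. The C-type lectin receptors lie almost wholly under it, with 1 of 17 above. Of all named genes 55.8% passed it on both arrays.

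Transcription factor genes tied to these antigens were mostly above the lower background. Of 11 measured 10 (90.9%) exceeded the olfactory threshold and 2 also the second, beside 55.8% and 17.0% of all named genes. The share over the second threshold was near that of all genes. MYB, which is known to act on the KIT and CD34 promoters, read 9.29 and 9.53; KIT and CD34 themselves were under the olfactory threshold. GFI1, a repressor of granulocyte precursors, read 5.34 and 5.79, over the second threshold on replicate 2 only, so it is not among the 2. MEIS1, an activator of FLT3, was the lowest (2.14 and 1.76).

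Promoters rich in CpG were more often those of genes with signal. A window was called CpG-rich at over 50% G and C and a ratio of observed to expected CpG over 0.6. Of 9631 named genes with such a window at any start site, 71.0% passed the olfactory threshold, against 31.1% of 4599 genes without one. Olfactory receptor genes, most of which fail this threshold by construction, were not removed from either class. Of the antigens 6 had such a window, and 4 of these passed: CD47, ANPEP (upstream start), FUT4 (23 CpGs) and FLT3 (26 CpGs). KIT and CD44 (15 CpGs) had one and did not pass. Of the 3 without one, CLEC12A passed, and CD38 (3 CpGs) and CD34 (14 CpGs, ratio 0.59, just short of the limit) did not. With 9 genes these counts are a description.

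The same windows were searched on both strands for 3 motifs, none of which contains another. A match is a description of the letters and not a bound site. The GC box GGGCGG, bound by SP1, was found in the windows of CD47 (5 matches), the upstream start of ANPEP (3), CD34 (2), CD44 (2) and KIT (1), and in 42.6% of all windows. The core of the PU.1 box, GAGGAA, was found once each in CLEC12A, CD34 and FLT3, and in 23.6% of all windows. The TATA box TATAAA was in none of the windows of the 9 genes and in 10.7% of all windows.

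**Figure D4:**
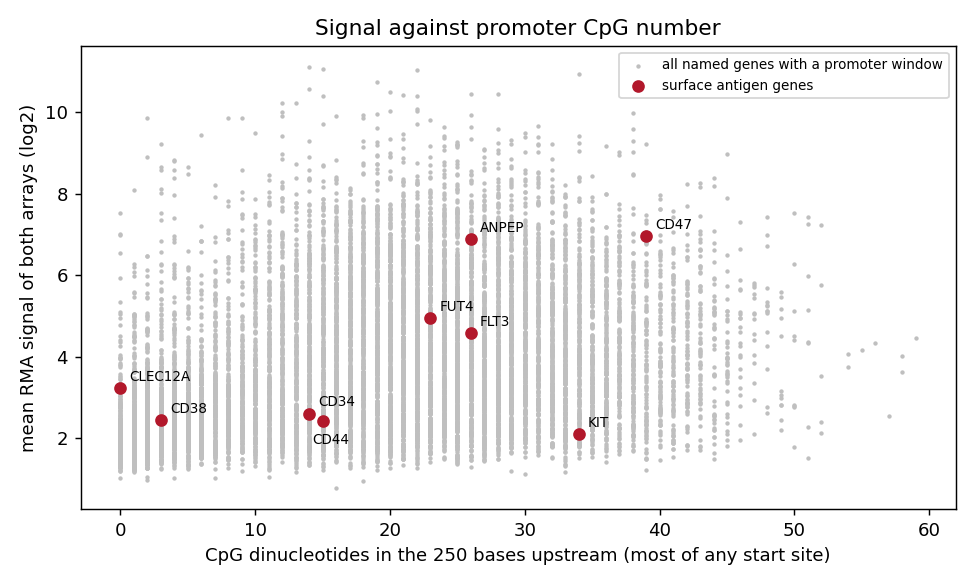
Mean signal of both arrays (log2, vertical axis) against the number of CpG dinucleotides in the 250 bases upstream of the start (horizontal axis; the most of any start site) for named genes with a promoter window (grey) and the surface antigen genes (red). KIT, with 34 CpGs, has a mean signal of 2.09, and CD47, with 39, one of 6.96.

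Markers of the line and of other cells were read on the same arrays. All 8 listed promyelocyte markers passed the olfactory threshold, 4 of them the second as well, with CTSG and SRGN (9.25 and 9.00) highest. AZU1 (3.01 and 3.19) was the lowest. Of 8 monocyte markers 0 passed. Of markers of other lineages, 3 of 11 passed for T and NK cells, 3 of 6 for B cells, 4 of 8 for erythroid cells and megakaryocytes, and 2 of 9 for epithelium and stroma, and 0 of any of these passed the second threshold. In RNA from many cells, fewer cells carrying an antigen and less RNA in each cannot be told apart.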

How the data were processed

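RNA of wild-type HL-60 was measured on 2 Affymetrix Human Gene 1.0 ST arrays (200 ng of total RNA, amplified and biotin-labelled with NuGEN kits, per the labels' protocols). The values deposited by the authors are log2 signals made with RMA, per the submitters' processing notes; its software and version: not given in the sources used here. Base 2 was assumed, as RMA uses it. Quantile normalization within RMA makes arrays alike in distribution, and a global RNA difference cannot be seen. Of 32321 probe sets 19158 carried 1 symbol in the platform annotation; 19128 were updated through Entrez IDs to RefSeq symbols (GRCh38.p14), giving 18404 genes, with several probe sets averaged.

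With 1 group no test exists. Genes named are the 9 measured antigens and KITLG, FLT3LG and SIRPA, and from each list the 2 highest, the lowest and those differing by over 1 with at least 1 array above background; markers of other lineages are given as counts. Exceptions are stated. The genes and lists were chosen with earlier results of these data known. Promoter windows were examined after the signals had been seen. Genes set far above or below background, and simulated shifts between arrays, served only to check that the calls were computed as described. They do not measure the error of the calls on the real arrays. Alternatives were other normalization (quantile, loess), the highest probe set per gene, shared probe sets, other thresholds, and each array alone. The number of arrays limits the precision. Tools were Python 3.11.15, numpy 2.4.6, pandas 2.3.3, statsmodels 0.14.6 and matplotlib 3.10.9.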

Additional observations from a re-analysis of the deposited data

How the results depend on the processing

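No paired analysis was possible because both arrays belong to 1 group. Of 33 recomputed counts and medians 3 moved: a count by over 1.5 times, or a median by over the per-array SD of 0.28, was taken as a move. Some could not move. Each measured antigen had 1 probe set and none shared with other symbols. The highest and the shared probe set settings therefore left the antigens' values unchanged by construction. When the second background set gave the threshold, 2 in place of 5 antigens and 31 in place of 106 genes of the related lists were above background. With a limit of 0.5 in place of 1, 1 antigen differed between the arrays in place of 0, FLT3. Differences of that size were common: CSF3R, of the typing panels, differed by 0.503, and 17.3% of named genes differed by more. At the 99th percentile 4 antigens passed, CLEC12A being lost, and 74 in place of 106 genes of the related lists, which is within the 1.5 times allowed. Without replicate 1 or replicate 2 the antigens above the olfactory and second thresholds numbered 5 and 2, as with both, and genes of the related lists 106 to 116. After quantile normalization and loess, all 9 antigens kept the sign of their difference, and that of FLT3 was 0.79 and 0.81. The loess step leaves a gene's mean unchanged by construction. Scanner files were not used here, so background correction and scan batches were not examined.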

Other observations

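Some antigens of typing panels were seen only through probe sets that carry several symbols. FCGR1A, the Fc receptor CD64 of monocytes, shares 2 probe sets with its pseudogene copies; one read 1.36 on replicate 1 and 1.61 on replicate 2, the other 2.16 and 3.91. The MHC class II gene HLA-DRA shares 3 probe sets with HLA-DQA1. One of them read 4.32 on replicate 1 and 2.32 on replicate 2, another 1.80 and 0.56, and the last 1.95 and 1.83. None of these 5 passed the olfactory threshold on both arrays. EZR, the ezrin gene, whose product like moesin ties CD44 to actin, shares its probe set with ROS1, which read 7.32 and 6.88, over the second threshold on both arrays.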
